A study of Homo sapiens with 12 samples.

Results

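The clustered histone genes were followed in AGS cells, an epithelial cell line from a human gastric adenocarcinoma, over a course of mycophenolic acid (MPA). MPA inhibits inosine monophosphate dehydrogenase, the enzyme that commits inosine monophosphate to the synthesis of guanine nucleotides. The 12 Illumina HumanHT-12 expression arrays comprised 4 arrays of AGS cells at 0 h of MPA and 2 arrays each at 12 h, 24 h, 48 h and 72 h of MPA at 2 µg/ml. No group was genetically altered. The labels do not say that the arrays came from separate cultures, so a p-value measures the spread between these arrays, which may be technical. There were no cells kept without MPA for 12 h to 72 h, so time in MPA cannot be told apart from time in culture. All comparisons with 0 h share the same 4 arrays. The array number limits the precision of every value, and each later time rests on 2 arrays.

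The members were the probes whose array annotation carries a symbol starting with HIST1H, HIST2H, HIST3H or HIST4H, and they are named here by the current symbols (H1-, H2AC, H2BC, H3C and H4C with a number). The rule found 74 of 48803 probes, for 65 of the 18852 genes on the array. Of these genes 6 encode the linker histone H1, 15 encode H2A, 18 encode H2B, 12 encode H3 and 14 encode H4. In the HIST1 cluster on chromosome 6 there were 53 genes, in the HIST2 cluster on chromosome 1 there were 8, in HIST3 on chromosome 1 there were 3, and HIST4 on chromosome 12 held 1. A gene was taken as measured where some probe of it was detected (detection p under 0.01) on 2 or more arrays, and 27 of the 65 were (2 H1, 4 H2A, 7 H2B, 7 H3 and 7 H4), among 10469 measured genes in all. Of the 74 probes, 38 were detected on no array, 5 on 1 array, 1 carried several genes, and 3 were second probes of measured genes. Levels are normalized log2 signals, in which a difference of 1 is a doubling of signal.

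H2A, H2B, H3 and H4 form the protein core of the nucleosome, and H1 binds the DNA between nucleosomes. Most of these genes are transcribed in S phase, when new chromatin is assembled on replicated DNA, and their messages end in a conserved stem-loop, bound by the stem-loop binding protein SLBP, in place of a poly(A) tail. Some of them also give transcripts with a poly(A) tail, and the labelling of these arrays started from an oligo-dT primer, which binds such a tail.

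RefSeq windows of the 100 bases upstream of the start (GRCh38.p14, 5′ to 3′ on the gene's strand) show which elements genes of each type carry. They are given for 5 genes called higher at 72 h and for H2BC12, H2BC9 and H2AC20, each called lower at some time. H3C13, among the 5, was higher by the probe used for it and lower by its second probe. Capitals mark CCAAT, which reads as ATTGG where it lies on the other strand, GGTCCG, the core of the element described in H4 promoters, the octamer ATTTGCAT described in H2B promoters, and TATAAA.
H3C13 (chr1:149813694-149813793, minus strand): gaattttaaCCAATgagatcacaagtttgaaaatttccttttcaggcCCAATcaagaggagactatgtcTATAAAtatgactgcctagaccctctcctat
H3C14 (chr1:149841209-149841308, minus strand): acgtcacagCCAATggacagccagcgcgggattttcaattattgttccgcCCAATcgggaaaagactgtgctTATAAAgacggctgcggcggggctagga
H4C14 (chr1:149832557-149832656, plus strand): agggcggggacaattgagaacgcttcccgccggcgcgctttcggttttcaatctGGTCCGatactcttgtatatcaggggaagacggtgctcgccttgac
H4C8 (chr6:26285535-26285634, minus strand): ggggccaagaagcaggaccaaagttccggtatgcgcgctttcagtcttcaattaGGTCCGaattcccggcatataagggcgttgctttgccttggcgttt
H4C16 (chr12:14771132-14771231, minus strand): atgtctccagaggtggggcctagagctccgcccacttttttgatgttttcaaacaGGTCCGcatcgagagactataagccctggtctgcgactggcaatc
H2BC12 (chr6:27146859-27146958, minus strand): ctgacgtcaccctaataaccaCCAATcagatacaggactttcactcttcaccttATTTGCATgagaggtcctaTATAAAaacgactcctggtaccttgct
H2BC9 (chr6:26251514-26251613, plus strand): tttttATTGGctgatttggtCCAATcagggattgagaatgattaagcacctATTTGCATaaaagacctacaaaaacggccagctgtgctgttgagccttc
H2AC20 (chr1:149886818-149886917, plus strand): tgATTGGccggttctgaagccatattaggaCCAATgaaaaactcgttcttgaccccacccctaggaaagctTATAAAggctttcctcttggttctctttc

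The clustered histone genes did not move as a block. At 12 h and 24 h most changes were small, and those that passed the test were mostly decreases. Over all 65 genes, measured or not, the lower share at these times was close to or below that of all genes. It was 4 of 65 at 12 h and 8 of 65 at 24 h, against 8.97% and 10.9%. At 72 h most of the changes that passed the test were increases, led by H3 and H4 genes. A gene was called changed at an adjusted p under 0.05 in limma's moderated test, adjusted over all genes tested. Of the 27 measured genes, 12 were called higher at some time, 9 were called lower at some time, 0 were called in both directions, and 6 were called at no time (H1-2, H2BC4, H2BC11, H3C8, H3C11 and H4C12). The share of all genes called at some time was not counted, so nothing is read from these numbers.

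At 12 h, 1 measured histone gene was called higher and 5 lower, where 16.4% of all genes tested were called higher and 17.9% lower. At 24 h, 1 was higher and 9 were lower, against 20.4% and 21.3% of all genes. At 48 h, 6 rose and 5 fell, against 20.7% and 22.8%. At 72 h the split was 11 higher to 2 lower, against 21% and 21.4%. For the mean of the 4 times it was 8 to 4, against 24.5% and 27.3%. The median log2 fold change of the 27 genes went from -0.08 at 12 h through -0.22 at 24 h and -0.06 at 48 h to 0.51 at 72 h (0.20 at 72 h over all 65 genes with no filter), while the median of all genes tested stayed between -0.04 and -0.01. These counts depend on single arrays in several places. Without replicate 2 at 12 h the 5 lower calls at 12 h fell to 1, and without replicate 1 at 12 h they fell to 2 and no gene was called higher. They fell to 3 without replicate 1 or replicate 4 at 0 h. The 9 lower calls at 24 h fell to 4 without replicate 1 at 24 h, and the higher call was lost without replicate 2 at 24 h. The 5 lower calls at 48 h fell to 3 without replicate 1 at 48 h or either array at 72 h, and the 2 lower calls at 72 h became 1 without replicate 3 at 0 h or replicate 1 at 72 h. The higher calls at 72 h stayed between 10 and 12 whichever array was left out, and those at 48 h between 4 and 7.

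**Figure D1:**
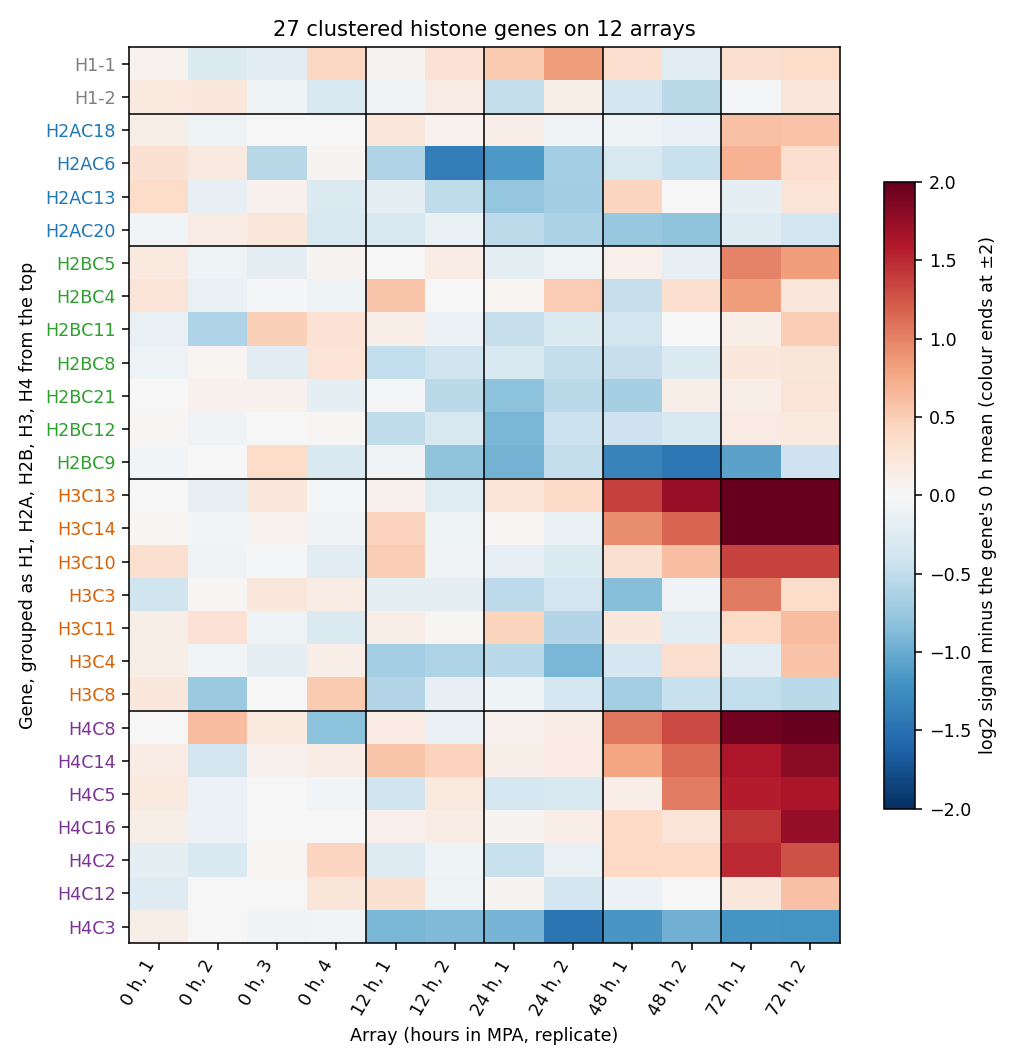
Each row is one of the 27 measured clustered histone genes, grouped as H1, H2A, H2B, H3 and H4 from the top, and each column is one of the 12 arrays. Colour is the log2 signal minus the gene's mean at 0 h, with the colour scale ending at ±2. The H3 and H4 rows hold most of the increases at 72 h, and the H4C3 row is lower on every array after 0 h.

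A probe could enter this set through its signal at late times alone, so the counts over the 27 genes are no support for a rise. Over all 65 genes on the array with no filter on dim probes, 18 were called higher at 72 h and 2 lower, against 11.1% and 10.9% of the 18852 genes tested the same way. The 18 comprised 2 of the 6 H1 genes, 4 of the 15 H2A genes, 2 of the 18 H2B genes, 4 of the 12 H3 genes and 6 of the 14 H4 genes. Of the 18, 7 had not passed the filter, among them H1-5, H4C1 and H2AC8, with fitted differences of 1.17, 0.84 and 0.73. H1-5 and H4C1 were detected on 1 array each and H2AC8 on no array, so these values are not sizes of a change. With no filter, 1 gene was higher and 4 were lower at 12 h (8.2% and 8.97% of all genes), 2 were higher and 8 lower at 24 h (10.8% and 10.9%), and 5 were higher and 3 lower at 48 h (10.9% and 11.7%). Among the 11 members detected on all 12 arrays, 3 were called higher at 72 h and 1 lower, against 22.3% and 23.4% of genes detected so. Their share was therefore close to that of other genes, and the excess at 72 h lay in members that were dim or not detected before MPA. Of those 11 members, 5 were called lower at 24 h and 0 higher, before adjustment too, against 23.5% and 21% of genes detected so.

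Calls of an increase were most frequent among the genes for H4, the histone that pairs with H3 in the nucleosome core. Of the 7 measured H4 genes, 5 were called higher at 72 h, 1 lower and 1 in neither direction, and H4C2, H4C5 and H4C16 among them entered the set through late arrays alone. Over all 14 H4 genes with no filter, 6 were higher and 1 lower, against 11.1% and 10.9% of all genes tested so. Their median log2 fold change was 0.30. H4C8 had signals of 5.64, 6.25, 5.83 and 4.81 at 0 h, 5.79 and 5.50 after 12 h, 5.72 and 5.79 after 24 h, 6.69 and 6.95 after 48 h, and 7.56 and 7.63 after 72 h. The 48 h and 72 h arrays all lay above every earlier array. Its log2 fold change was 1.19 ± 0.28 (SE) at 48 h (limma adjusted p = 0.0044) and 1.96 ± 0.28 at 72 h (limma adjusted p = 0.00016). Without replicate 2 at 48 h the call at 48 h was lost (1.06, limma adjusted p = 0.05), while the call at 72 h was kept with each array left out in turn.

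H4C14, in the HIST2 cluster, was detected on all 12 arrays, so its rise does not start from an undetected level. Its signals were 6.44, 5.92, 6.38 and 6.44 at 0 h, 6.86 and 6.75 after 12 h, 6.41 and 6.46 after 24 h, 7.08 and 7.43 after 48 h, and 7.92 and 8.11 after 72 h. Both 72 h arrays were the highest and the 48 h pair came next, with no overlap with 0 h at either time. The log2 fold change was 0.96 at 48 h (limma adjusted p = 0.00041) and 1.72 ± 0.16 (SE) at 72 h (limma adjusted p = 4.9e-06). The smaller rise at 12 h (0.51, limma adjusted p = 0.025) was lost without either 12 h array, with adjusted p of 0.14 and 0.083. The RefSeq window of H4C14, from 250 bases before to 50 after the start, is identical over all 300 bases to that of H4C15, a gene that the array annotation does not name. Probe sequences were not used here, and whether the probe also reads H4C15 was not tested.

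H4C5, H4C16 and H4C2 came up from below detection. H4C5 signals were 5.24, 4.93, 5.03 and 4.99 at 0 h, 4.65 and 5.25 after 12 h, 4.70 and 4.74 after 24 h, 5.18 and 6.06 after 48 h, and 6.61 and 6.68 after 72 h. H4C16, the single gene of the HIST4 cluster, had signals of 4.60, 4.36, 4.47 and 4.50 at 0 h, 4.58 and 4.63 after 12 h, 4.54 and 4.61 after 24 h, 4.88 and 4.73 after 48 h, and 5.90 and 6.24 after 72 h. In both genes the 72 h arrays stood above all others, and the 48 h arrays of H4C5 were spread widely. Where a gene was not well above background on any array of a group, the fold is given as a bound, computed against the lowest signal well above background on each array or the gene's own signal if that was higher. At 72 h H4C5 was at least 1.95-fold higher (fitted log2 fold change 1.60 ± 0.22 SE, limma adjusted p = 1e-04) and H4C16 at least 1.32-fold higher (1.59 ± 0.12, limma adjusted p = 9.9e-07). H4C2 was at least 1.48-fold higher, with a fitted log2 fold change of 1.39 ± 0.18 (limma adjusted p = 8.4e-05). The 72 h calls of these 3 genes were kept with each array left out in turn. The call of H4C5 at 48 h, for which no bound could be given (fitted 0.58, limma adjusted p = 0.047), turned on 1 array, being 0.13 with an adjusted p of 0.66 without replicate 2 at 48 h and 1.02 with an adjusted p of 0.0031 without replicate 1. H4C16 was detected on no array at 0 h or 48 h, so its call at 48 h, counted among the 6 higher genes, has no fold, and it was lost when most single arrays were left out.

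H4C3 went the other way. Its signals were 13.54, 13.43, 13.36 and 13.38 at 0 h, 12.51 and 12.54 after 12 h, 12.51 and 11.97 after 24 h, 12.26 and 12.46 after 48 h, and 12.25 and 12.23 after 72 h. All 8 arrays with MPA lay below all 4 arrays at 0 h. The fall was in place at 12 h (-0.90, limma adjusted p = 4e-04) and stood at -1.19 at 24 h, -1.07 at 48 h and -1.19 at 72 h. Over the mean of the 4 times it was -1.09 ± 0.10 (SE, limma adjusted p = 2.1e-06), and no array left out took that call away. H4C12 was called at no time. Its signals were 6.05, 6.31, 6.30 and 6.54 at 0 h and 6.52 and 6.88 after 72 h, which overlap, with a difference of 0.40 (limma adjusted p = 0.082).

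**Figure D2:**
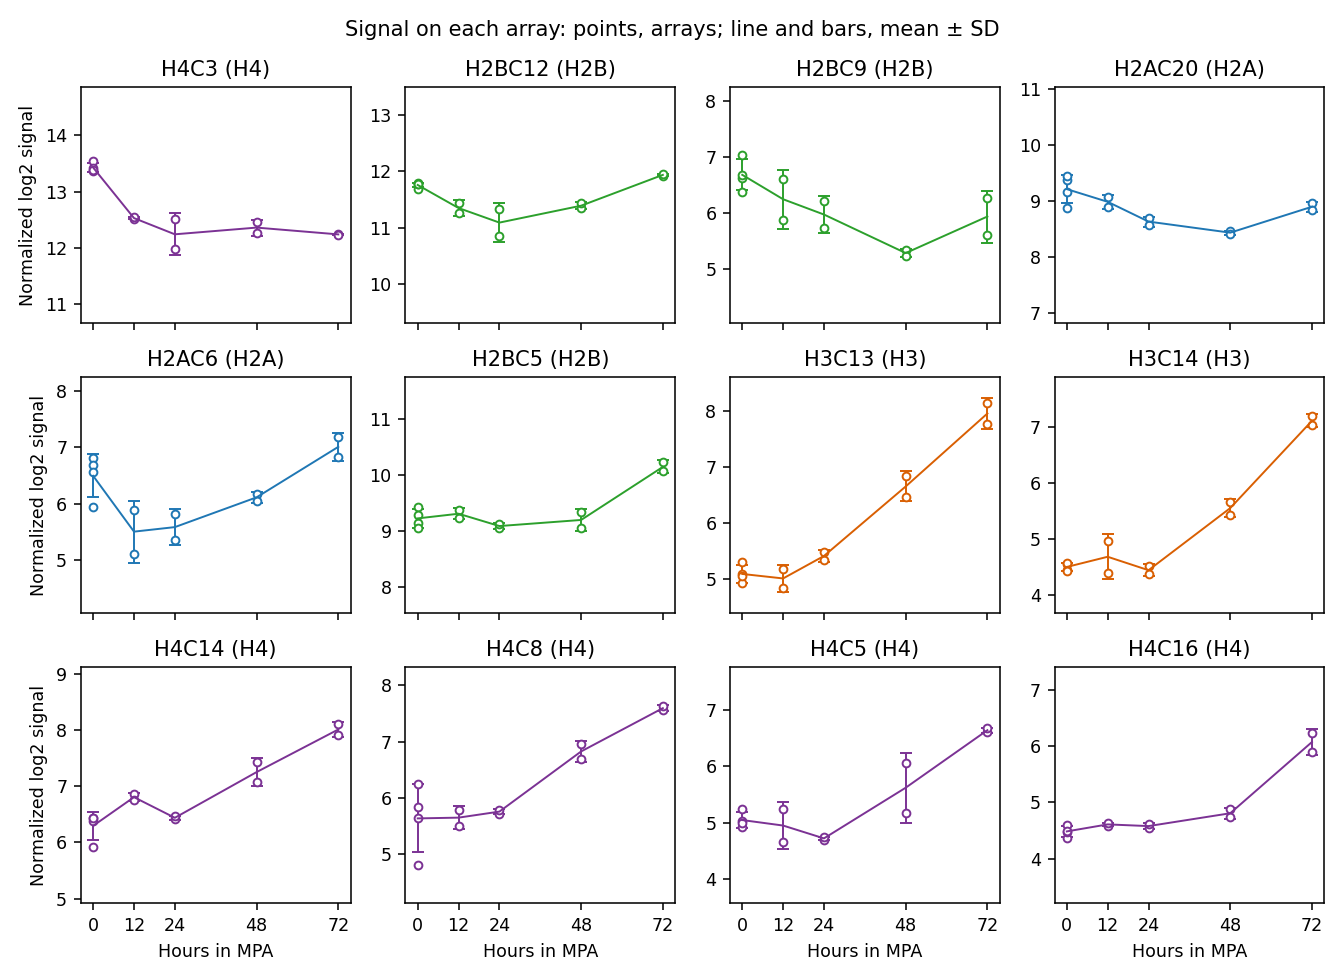
Normalized log2 signal (vertical axis, the same span in each panel) against hours in MPA for 12 clustered histone genes, with points for arrays and a line with bars for the group mean ± SD. H4C3 drops at 12 h and stays down, H2BC12 and H2AC6 dip and come back, and H3C13, H3C14, H4C14, H4C8, H4C5 and H4C16 climb to their highest signals at 72 h.

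Among the H3 genes, 4 of 7 measured were called higher at 72 h and 0 lower (0 also at an unadjusted limma p under 0.05), of which H3C10, H3C13 and H3C14 entered the set through late arrays alone. Over all 12 H3 genes with no filter, 4 were higher and 0 lower, against 11.1% and 10.9% of all genes tested so. Their median log2 fold change was 0.24. H3C13 and H3C14, which both lie in the HIST2 cluster, were seen as follows with the probes used for them. H3C13 signals were 5.09, 4.93, 5.31 and 5.07 at 0 h, 5.19 and 4.85 after 12 h, 5.35 and 5.49 after 24 h, 6.47 and 6.84 after 48 h, and 8.15 and 7.76 after 72 h. H3C14 signals were 4.55, 4.46, 4.58 and 4.44 at 0 h, 4.97 and 4.41 after 12 h, 4.52 and 4.38 after 24 h, 5.44 and 5.67 after 48 h, and 7.19 and 7.03 after 72 h. In each gene both 72 h arrays were the highest, both 48 h arrays came next, and the earlier arrays lay below them. H3C13 was at least 1.97-fold higher at 48 h (fitted log2 fold change 1.56, limma adjusted p = 1.1e-05) and at least 4.84-fold higher at 72 h (2.86 ± 0.16 SE, limma adjusted p = 8.2e-08). H3C14 had a fitted change of 1.05 at 48 h, with no bound (limma adjusted p = 0.00013) and by 72 h was at least 2.70-fold higher (2.60 ± 0.15, limma adjusted p = 9e-08). The window of H3C14 matches that of H3C15 over 296 of 296 overlapping bases, and whether its probe also reads H3C15, which the annotation does not name, was not tested.

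A second H3C13 probe gave the opposite direction. It was detected on all 4 arrays at 0 h, with 6.44, 6.75, 6.05 and 6.54, and read 5.13 and 4.90 after 12 h, 5.52 and 5.35 after 24 h, 5.16 and 5.65 after 48 h, and 5.66 and 5.77 after 72 h. All 8 later arrays lay below all 4 arrays at 0 h. Its log2 fold change was -1.43 at 12 h (limma adjusted p = 0.00016) and -0.73 ± 0.19 (SE) at 72 h (limma adjusted p = 0.0087), both adjusted over the 13772 probes tested. The probe used for the gene was the brighter of these by its mean over all arrays, and with the mean of both probes the H3C13 change was 0.26 at 48 h (limma adjusted p = 0.14), 1.06 at 72 h (limma adjusted p = 6.5e-05) and 1.21 late against early (limma adjusted p = 1.1e-05). The direction of H3C13 thus depends on the probe, and no single direction of the gene can be given.

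**Figure D3:**
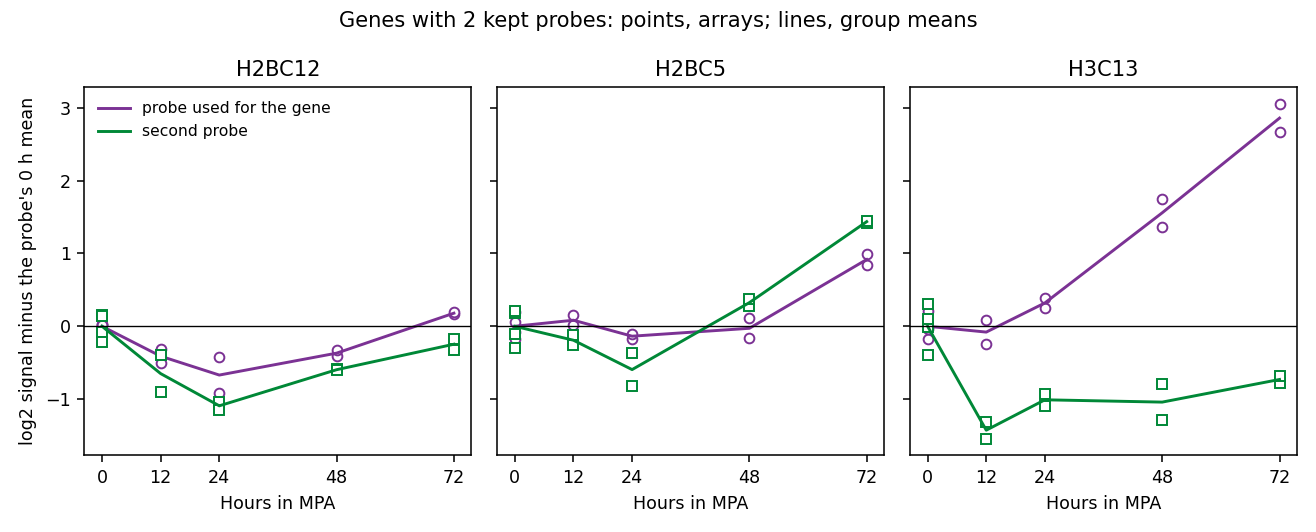
Log2 signal minus the probe's mean at 0 h (vertical axis) against hours in MPA for the 3 clustered histone genes with 2 kept probes, with points for arrays and lines for group means. Both probes of H2BC12 dip at 24 h and both probes of H2BC5 are higher at 72 h, whereas the H3C13 probes separate, with one above 0 and the other below 0 at 48 h and 72 h.

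H3C10 signals were 5.47, 5.08, 5.13 and 4.93 at 0 h, 5.65 and 5.08 after 12 h, 4.99 and 4.87 after 24 h, 5.46 and 5.75 after 48 h, and 6.50 and 6.50 after 72 h. It overlapped with 0 h until 48 h and by 72 h it was at least 1.77-fold higher (fitted log2 fold change 1.35 ± 0.17 SE, limma adjusted p = 7.6e-05). H3C3 was higher by 0.70 ± 0.24 at 72 h (limma adjusted p = 0.031), a call lost without replicate 1 at 72 h (0.37, adjusted p = 0.34) or replicate 1 at 0 h (0.57, adjusted p = 0.067). H3C4 dipped early. Its signals were 5.67, 5.51, 5.36 and 5.70 at 0 h, 4.88 and 4.95 after 12 h, 5.02 and 4.64 after 24 h, 5.22 and 5.87 after 48 h, and 5.33 and 6.12 after 72 h, so that the 12 h and 24 h arrays lay below 0 h and the later ones overlapped with it. H3C4 was not well above background on any array at 12 h or 24 h. It was at least 1.08-fold lower at 24 h (fitted difference -0.73 ± 0.22 SE, limma adjusted p = 0.02), and no bound could be given at 12 h (fitted -0.64, limma adjusted p = 0.042). Both calls turned on single arrays, the former lost without replicate 2 at 24 h (-0.53, adjusted p = 0.19) and the latter without either 12 h array (adjusted p of 0.17 and 0.14) or replicate 1, 2 or 4 at 0 h. H3C8, called at no time, ranged from 4.87 to 6.14 at 0 h, which covered all its later arrays.

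The calls among the measured H2B genes, whose products pair with H2A, were decreases at 24 h. Of the 7 measured, 4 were called lower at 24 h and 0 higher (0 also at an unadjusted limma p under 0.05). Of all genes tested, 21.3% were lower and 20.4% higher. Over all 18 H2B genes with no filter, 2 were lower and 0 higher at 24 h, with a median log2 fold change of -0.14. Of all genes tested so, 10.9% were lower and 10.8% higher, so the lower share in H2B was close to that of all genes. H2BC12 signals were 11.79, 11.70, 11.77 and 11.78 at 0 h, 11.25 and 11.44 after 12 h, 10.84 and 11.34 after 24 h, 11.35 and 11.44 after 48 h, and 11.92 and 11.96 after 72 h. The 6 arrays from 12 h to 48 h lay below 0 h, and both 72 h arrays lay above it. The fall at 24 h was 0.67 ± 0.13 (SE, limma adjusted p = 0.0016), or 0.42 (adjusted p = 0.046) without replicate 1 at 24 h. The change at 72 h was 0.18 (limma adjusted p = 0.31), and the falls at 12 h and 48 h (adjusted p of 0.032 and 0.041) were lost when most single arrays of the groups compared were left out. A second H2BC12 probe fell by 1.09 at 24 h (limma adjusted p = 0.00018) and stood at -0.25 at 72 h (limma adjusted p = 0.24).

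At 12 h the change of H2BC9 (-0.43, limma adjusted p = 0.19) was close to that of H2BC12 (-0.41, limma adjusted p = 0.032). H2BC12 was lowest at 24 h and H2BC9 at 48 h. H2BC9 signals were 6.63, 6.67, 7.04 and 6.38 at 0 h, 6.61 and 5.87 after 12 h, 5.74 and 6.21 after 24 h, 5.34 and 5.23 after 48 h, and 5.61 and 6.26 after 72 h. From 24 h on every array lay below 0 h, and the 48 h pair was lowest. H2BC9 was at least 2.11-fold lower at 48 h (fitted log2 fold change -1.39 ± 0.24 SE, limma adjusted p = 0.00056), and that call was kept with each array left out. Its calls at 24 h (-0.71, limma adjusted p = 0.033) and 72 h (-0.74, limma adjusted p = 0.026) rested on single arrays, being -0.47 with an adjusted p of 0.28 without replicate 1 at 24 h and -0.42 with an adjusted p of 0.3 without replicate 1 at 72 h. They were also lost without replicate 3 at 0 h (adjusted p of 0.074 and 0.059), and the first of them without replicate 2 at 0 h (adjusted p = 0.054).

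H2BC5 was the measured H2B gene called higher at 72 h. Its signals were 9.42, 9.14, 9.05 and 9.28 at 0 h, 9.23 and 9.38 after 12 h, 9.05 and 9.12 after 24 h, 9.33 and 9.06 after 48 h, and 10.22 and 10.06 after 72 h. The first 3 times overlapped with 0 h and both 72 h arrays stood above all others, by 0.92 ± 0.13 (SE, limma adjusted p = 0.00017). Its second probe was higher by 1.44 at 72 h (limma adjusted p = 3.9e-05) and lower by -0.59 at 24 h (limma adjusted p = 0.014). H2BC21, in the HIST2 cluster, read 6.45, 6.52, 6.54 and 6.26 at 0 h and 5.62 and 5.91 after 24 h, then 5.78 and 6.55 after 48 h and 6.58 and 6.70 after 72 h. Its 24 h arrays lay below 0 h and its 72 h arrays above, and the difference at 24 h (-0.68 ± 0.20, limma adjusted p = 0.016) was lost without replicate 1 at 24 h (-0.53, adjusted p = 0.15). H2BC8 was lower by -0.44 at 12 h, -0.39 at 24 h and -0.37 at 48 h (limma adjusted p of 0.026, 0.036 and 0.046), calls that were lost without either array of the later time at 12 h (adjusted p of 0.14 and 0.081) and at 24 h (0.069 and 0.24), and without 10 of the 12 arrays, singly, at 48 h. H2BC11 overlapped with its 0 h range of 5.73 to 6.82 at every time, apart from 1 array at 72 h at 6.83, and was called at none.

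Of the 4 measured H2A genes, 3 were called lower at 24 h and 0 higher (unadjusted limma p under 0.05: 0). Of all genes tested, 21.3% were lower and 20.4% higher. Over all 15 H2A genes with no filter, 3 were lower and 1 higher at 24 h, with a median of -0.05. Of all genes tested so, 10.9% were lower and 10.8% higher. H2AC6 signals were 6.80, 6.68, 5.94 and 6.56 at 0 h, 5.89 and 5.11 after 12 h, 5.35 and 5.81 after 24 h, 6.18 and 6.04 after 48 h, and 7.19 and 6.83 after 72 h. The 12 h and 24 h arrays lay below 0 h, the 48 h arrays within its range and the 72 h arrays above it. The difference was -0.99 ± 0.25 (SE) at 12 h (limma adjusted p = 0.0095), -0.91 at 24 h (limma adjusted p = 0.012) and 0.52 at 72 h (limma adjusted p = 0.12). Leaving out replicate 2 at 12 h gave -0.60 at 12 h (adjusted p = 0.17), and leaving out replicate 1 at 24 h gave -0.68 at 24 h (adjusted p = 0.14).

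H2AC20, of the HIST2 cluster, had signals of 9.16, 9.37, 9.44 and 8.88 at 0 h, 8.90 and 9.07 after 12 h, 8.70 and 8.57 after 24 h, 8.46 and 8.41 after 48 h, and 8.96 and 8.83 after 72 h. The 24 h and 48 h arrays lay below 0 h, while 12 h and 72 h overlapped with it. Its fall was 0.78 ± 0.15 (SE) at 48 h (limma adjusted p = 0.0011), which was kept with each array left out. At 24 h it was 0.58 (limma adjusted p = 0.0078), which was not kept without replicate 2 at 24 h (-0.52, adjusted p = 0.075). H2AC13 read 5.72, 5.18, 5.43 and 5.06 at 0 h and 4.57 and 4.66 after 24 h, where it was not well above background. That difference (-0.73 ± 0.20, limma adjusted p = 0.011) was not past the threshold without replicate 1 at 24 h (-0.69, adjusted p = 0.076), and no bound on the fold could be given.

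H2AC18 was the measured H2A gene called higher at 72 h. It read 8.35, 8.13, 8.22 and 8.21 at 0 h and 8.82 and 8.79 after 72 h, with the arrays from 12 h to 48 h between 8.10 and 8.43. The difference at 72 h was 0.58 ± 0.11 (SE, limma adjusted p = 0.0012), and with arrays scaled to a common median rather than by quantiles it was 0.28 (limma adjusted p = 0.26). The windows of H2AC18 and H2AC19 share 299 of 299 overlapping bases, and whether the probe also reads H2AC19, which the annotation does not name, was not tested.

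Of the 6 linker histone genes, 2 were called higher at 72 h with no filter, H1-4 by 0.36 and H1-5 by 1.17, and neither was detected on 2 arrays. Of the 2 measured H1 genes, H1-1 read 5.46, 5.11, 5.17 and 5.79 at 0 h and 5.91 and 6.22 after 24 h, above 0 h, with its other arrays between 5.15 and 5.75. It was called higher at 24 h (0.69 ± 0.20 SE, limma adjusted p = 0.016), and not without replicate 2 at 24 h (0.53, adjusted p = 0.15). H1-2 read between 7.08 and 7.61 at 0 h and between 6.87 and 7.63 later, and was called at no time.

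**Figure D4:**
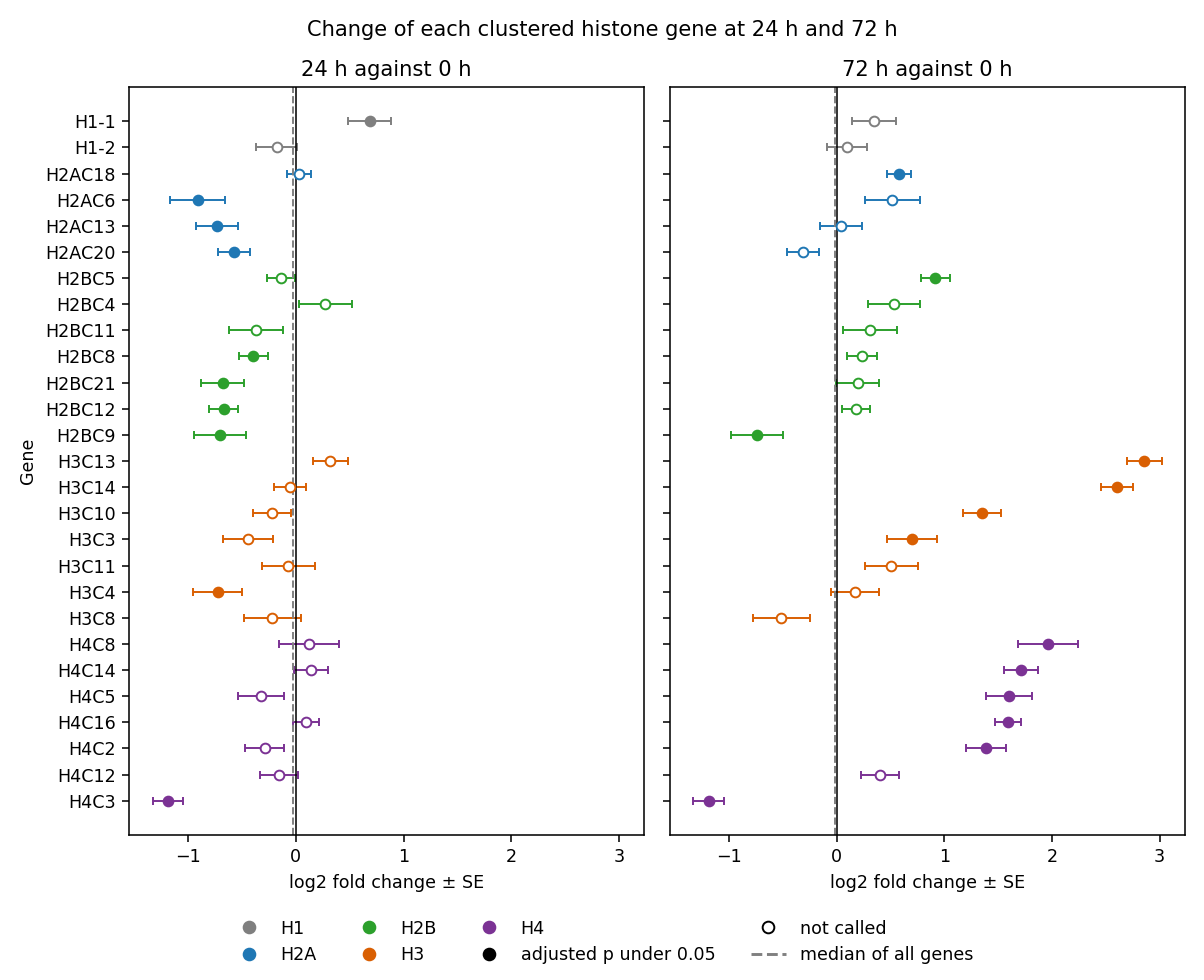
Log2 fold change ± SE (horizontal axis) of each measured clustered histone gene at 24 h (left) and 72 h (right) against 0 h, coloured by histone type. Filled points had an adjusted p under 0.05 and the dashed line is the median of all genes tested; at 24 h the filled points lie left of 0 except H1-1, and at 72 h they lie right of 0 except H4C3 and H2BC9.

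By size, 9 of all 65 genes were called and at least 2-fold higher at 72 h with no filter and 1 was at least 2-fold lower, against 2.63% and 1.97% of the 18852 genes tested so. Of the 27 measured genes the numbers were 8 and 1, against 4.72% and 3.55%. Nothing is read from either pair of counts. Both include H3C10, H3C13, H3C14, H4C2, H4C5 and H4C16, which were detected on no array at 0 h. The bounds for H3C10, H4C2, H4C5 and H4C16 at 72 h were 1.77, 1.48, 1.95 and 1.32, all under 2-fold. At 12 h 0 measured histone genes were called and changed 2-fold, against 3.02% of all genes higher and 2.91% lower. By place in the genome, 4 of the 8 genes of the HIST2 cluster were called higher at 72 h with no filter and 0 lower, with a median log2 fold change of 0.39, and H3C13, whose probes disagree, is 1 of the 4. In the HIST1 cluster 13 of 53 were higher and 2 lower, with a median of 0.22. Of all genes tested so, 11.1% were higher and 10.9% lower. The difference between the clusters was not tested.

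The later and earlier times were also compared directly, as the mean of 48 h and 72 h against the mean of 12 h and 24 h. The fitted difference uses no 0 h array, while the spread in its test is estimated over all 12 arrays. In this contrast 15 of the 27 measured genes were called higher late and 0 lower by limma (1 lower at an unadjusted p under 0.05), where 19.6% of all genes were called higher and 19% lower. With arrays scaled to a common median, 11 of the measured genes were called higher late and 1 lower. Over all 65 genes with no filter, 18 were higher late and 0 lower (1 at an unadjusted p under 0.05), against 9.86% and 9.61%. Among the 11 members detected on all 12 arrays, 5 were higher late and 0 lower, before adjustment too, against 21.8% and 20.5%. Among genes with detected arrays at both ends, H4C8 was higher late by 1.51 and H4C14 by 1.01. H3C10, H3C13, H3C14, H3C4, H4C2, H4C5, H4C16 and H2AC13 were detected on no array at 12 h or 24 h, so their fitted differences are not given as sizes here, and the second H3C13 probe gave 0.33 (limma adjusted p = 0.11). H2AC6 was higher late by 1.02, so that the recovery from its early dip passed the test while its level at 72 h did not differ from 0 h past the threshold.

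Upstream motifs were counted in the 250 bases before the start, on both strands. RefSeq held an entry for 25 of the 27 measured genes, and not for H3C11 and H4C3. CCAAT was found in 19 of the 25, against 37% of 27305 genes of all kinds, TATAAA in 18 against 13%, the octamer ATTTGCAT in 9 against 2.03%, and GGTCCG in 8 against 11.3%. None of these motifs is contained in another on either strand, though some can share letters at their ends. The motifs largely followed the histone type. All 6 H4 genes held GGTCCG and 0 held CCAAT or the octamer, all 7 H2B genes held CCAAT and 6 of them the octamer, and all 6 H3 and all 4 H2A genes held CCAAT. Of the 11 genes called higher at 72 h, 0 held the octamer, 5 held GGTCCG and 6 held CCAAT, and of the other 14 genes 9 held the octamer, 3 GGTCCG and 13 CCAAT. The match was not complete. The octamer was also in 2 of the 4 H2A and 1 of the 6 H3 genes, and GGTCCG in 1 H2A and 1 H2B gene. The H2B gene without the octamer was H2BC5, which was called higher at 72 h. Motif and type mostly went together, and which of them the calls follow was not tested.

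Among the factors that make and end histone messages, calls were about as frequent as among all genes. Of 21 listed genes of histone transcription and 3′ end processing 17 were measured, and 4 were higher and 3 lower at 72 h, against 21% and 21.4% of all genes tested. SLBP, which binds the stem-loop, had a difference of -0.002 over the mean of the 4 times (limma adjusted p = 0.99). CPSF2, a subunit of the cleavage complex, was higher by 0.98, NFYC and NFYB, subunits of the CCAAT-binding factor NF-Y, were higher by 0.55 and 0.52, and LSM10, of the U7 snRNP that guides histone 3′ end cleavage, was at -0.49.

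Histone variants encoded outside the clusters, most of whose messages carry poly(A) tails, showed more decreases than increases at 72 h, with 1 of 11 measured genes higher and 6 lower, against 21% and 21.4% of all genes tested. MACROH2A2 was detected on all 4 arrays at 0 h and on none afterwards, and was at least 1.85-fold lower at 72 h (limma adjusted p = 2.9e-05). Over the mean of the 4 times H2AX, the variant phosphorylated at DNA breaks, at -0.98, CENPA, the centromeric H3, at -0.81, and H2AJ at 0.96. Of 18 measured chaperones and assembly factors, 2 were higher and 7 lower at 72 h, against the same shares. CHAF1A, the large subunit of the chromatin assembly factor CAF-1, was at -1.31, HJURP, the CENPA chaperone, at -0.79, CABIN1 at -0.69, and ASF1B, an H3 and H4 chaperone, at 0.78. At 72 h alone CHAF1A was at -1.44 (limma adjusted p = 1e-04) and ASF1B at 0.19 (limma adjusted p = 0.51).

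Genes of S phase and the measured clustered histone genes differed, as lists, in the direction of most calls at 12 h and 72 h. Single histone genes went in the direction of the S phase list. Of 28 listed S phase genes 26 were measured, of which 11 rose and 1 fell at 12 h, against 16.4% and 17.9% of all genes tested. At 24 h 7 rose and 5 fell, near the 20.4% and 21.3% of all genes. By limma 0 were called higher at 48 h and 72 h (0 and 2 at an unadjusted p under 0.05), when 14 (48 h) and 8 (72 h) were called lower. Of all genes, 20.7% were higher and 22.8% lower at 48 h, and 21% and 21.4% at 72 h. Their summed normalized signal was 80154 to 81325 at 0 h, 91879 to 93747 at 12 h, 67033 to 67647 at 48 h and 68831 to 70151 at 72 h. RRM2, a subunit of ribonucleotide reductase, was higher at 12 h (limma adjusted p = 0.00066), when H4C3 and H2AC6 were lower and H4C14 was higher. MCM2 and MCM5, subunits of the replicative helicase, were at -0.67 and -0.82 at 72 h (limma adjusted p of 0.003 and 0.0016). At that time H3C14 and H4C14 were higher, and H4C3 and H2BC9 were lower. In bulk RNA, fewer cells in S phase and less RNA per cell cannot be told apart.

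RNAs of other families that normally lack a poly(A) tail were mostly lower at 24 h, and some of them rose at 48 h and 72 h. Of 46 measured spliceosomal, nucleolar and other small RNAs, 2 rose and 11 fell by limma at 12 h, against 16.4% and 17.9% of all genes tested. At 24 h 4 rose and 22 fell, against 20.4% and 21.3%. At 48 h 9 did each, near the 20.7% and 22.8% of all genes. At 72 h 14 rose and 5 fell, against 21% and 21.4%. In the late against early contrast 28 were higher and 3 lower, against 19.6% and 19%, with a median of 0.45. An RNA could enter this list through its signal at late times alone, so these counts are no support for a rise. The 68 RNAs of the list on the array were not counted with no filter. The summed normalized signal of this list was 29627 to 33913 at 0 h, 29077 to 35565 at 12 h, 34107 to 36848 at 24 h, 55496 to 59234 at 48 h and 74878 to 82090 at 72 h. The median log2 fold change of the 46 RNAs was -0.44 at 24 h and 0.09 at 72 h, so a few members carry the summed signal. RN7SK, the scaffold of the complex that holds the elongation factor P-TEFb, was higher by 7.90 at 72 h, RNU11 of the minor spliceosome by 2.18 and SNORD46 by 2.93. RNU6ATAC and SNORD13, detected on no array at 0 h, were at least 14.5-fold and 10.8-fold higher. SNORD31, SNORD48, SNORD30, SNORA10 and SNORD100 were lower at 72 h, from -0.70 to -0.39. The part of these changes in the rise of the histone signals was not tested.

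More histone probes were detected at 72 h than before. Of the 74 probes, 18 to 23 were detected on the arrays at 0 h, 17 on each at 12 h, 19 to 21 at 24 h, 20 to 23 at 48 h, and 24 and 32 at 72 h. The count of all probes detected did not move with it, at 14077 to 14893 before MPA and 14514 to 15083 after 72 h. The epithelial markers KRT8, KRT19, EPCAM and CDH1 were detected on all 12 arrays, CLDN4 on 5 and KRT18 on 0. Of the fibroblast markers COL1A1 was detected on 7 arrays and COL1A2, DCN and LUM on 0, of the leukocyte markers CD14 on 5 and PTPRC and CD3E on 0, and of the endothelial markers PECAM1 on 3 and VWF, CDH5 and KDR on 0.

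**Figure D5:**
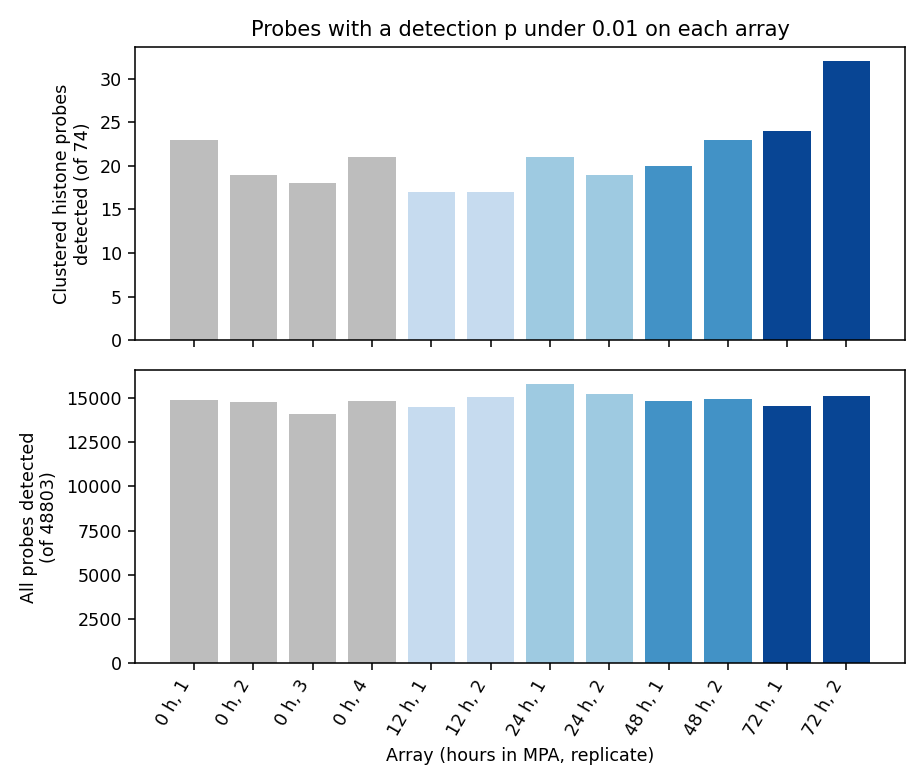
Bars give the number of probes with a detection p under 0.01 on each of the 12 arrays, of the 74 clustered histone probes (upper panel) and of all 48803 probes (lower panel), both axes from 0. The histone bars are highest at 72 h, with 24 and 32 probes, and the bars for all probes differ little between the groups.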

How the data were processed

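Total RNA of AGS cells was amplified by the authors from an oligo-dT primer and hybridised to Illumina HumanHT-12 BeadChips. The deposited table holds the mean bead intensity per probe, neither background-subtracted nor normalized, and the deposited detection score, which is 1 minus the detection p. The authors also deposited log2 values made with lumi (settings: not given in the sources used here), which served as an alternative. Intensities were corrected with limma (version 3.58.1, R 4.3.3) by normexp with the detection p and an offset of 16, taken to log2 and quantile normalized. Probes of 1 gene were kept where 2 or more arrays detected them (p under 0.01), and the brightest by its mean over all arrays stood for a gene. Of 48803 probes, 28098 had 1 gene in the platform annotation, 13 several and 20692 none. A limma model of the 5 groups over all 12 arrays gave the contrasts, with Benjamini-Hochberg adjustment over 10469 genes and a threshold of 0.05. statmod 1.5.0 gave the replicate block, and Python 3.11.15 the motif counts and figures. The code was tested on simulated data. All clustered histone genes could be named; values per array were given for up to 4 genes per histone type with the largest called change and for 1 called at no time. H4C3 and H4C2, H3C3 and H2BC8, and further values of H2AC20, H2BC9 and H2BC12 fell outside that rule and were chosen after their values were seen. The members and gene lists were chosen with earlier results of these data known. RefSeq upstream windows matched 60 of the 65 genes by symbol.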

Additional observations from a re-analysis of the deposited data

Results flagged for a closer look

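On the 4 arrays at 0 h, replicate 2 stood apart for a pair of genes. In H4C14 it read 5.92 against 6.38 to 6.44 on the other arrays, and in H2BC12 it read 11.70 against 11.77 to 11.79. By chance about 1 in 20 groups of this size shows such a gap.

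The change at 48 h and 72 h differed from the change at 12 h and 24 h, in the direct limma contrast on the log2 scale, for 15 of the 27 measured genes. Of all genes tested, 19.6% were called higher late and 19% lower. With no filter, 18 of the 65 histone genes were higher late and 0 lower, against 9.86% and 9.61% of all genes. The difference was 2.09 for H3C13, 1.76 for H3C14, 0.91 for H3C10 and 0.76 for H3C4. It was 1.51 for H4C8, 1.30 for H4C5, 1.13 for H4C2, 1.01 for H4C14 and 0.85 for H4C16. Among the H2A and H2B genes it was 1.02 for H2AC6, 0.67 for H2AC13, 0.47 for H2BC5, 0.45 for H2BC12, 0.45 for H2BC21 and 0.35 for H2BC8. All 15 were higher late than early. H3C10, H3C13, H3C14, H3C4, H4C2, H4C5, H4C16 and H2AC13 were detected on no array at 12 h or 24 h, so their values are fitted differences against signals not well above background, and the second H3C13 probe gave 0.33. The call of H2BC21 was lost without any of 9 arrays taken singly and that of H2BC8 without any of 5.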

How the results depend on the processing

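Of the 67 calls of single histone genes, 57 were kept with no background correction, 60 with an offset of 50, 55 with median scaling, 57 with the authors' log2 values, 65 with the mean of a gene's probes, 64 with array weights, 58 with a variance trend, 38 with a minimum fold of 1.2 and 45 at adjusted p under 0.01, and none changed direction. The 5 lower genes at 12 h became 3 with no background correction, median scaling, the authors' log2 values, members detected on all 12 arrays, array weights or a variance trend, and 2 with a minimum fold of 1.2 or adjusted p under 0.01. The 1 higher gene at 12 h and at 24 h became 0 under both of these. With the minimum fold, 2 genes were lower at 24 h, 3 at 48 h, 1 at 72 h and 2 in the mean of 4 times, and 5 were higher in the mean and 9 late. At adjusted p under 0.01, 3 were lower at 24 h, 3 at 48 h and 1 at 72 h. With no filter on 65 genes, 2 rose at 24 h, 3 fell at 48 h and 18 rose at 72 h, and the median was 0.20 at 72 h and 0.18 late against early. Over the 11 members detected on all 12 arrays, 0 rose and 5 fell at 24 h, 1 rose at 48 h, 3 rose and 1 fell at 72 h, and 1 rose in the mean and 5 late, with a 72 h median of 0.23. That median was 0.22 with no background correction and with the authors' values.

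Over the 14 members detected on all 4 arrays at 0 h, an alternative chosen after seeing the data, 0 were higher at 24 h, 1 at 48 h, 4 at 72 h, 1 in the mean and 6 late, with medians of -0.37 at 48 h and -0.18 in the mean. Median scaling moved the median of all genes to -0.32 at 72 h. With it 10 histone genes were higher and 3 lower at 72 h, and 23 of 27 lay above that median. In the late against early contrast, 11 were then higher and 1 lower. Replicate numbers did not pair the arrays, since same-numbered arrays deviated together in 1 of 10 group pairs (correlations from -0.14 to 0.15). With the replicate block 2 genes were lower at 12 h and 1 at 72 h, and 52 of the 67 calls were kept. A slide block was not run, since the files give no slide.

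With each array left out in turn, the genes higher and lower ranged from 0 to 1 and 1 to 5 at 12 h, 0 to 1 and 4 to 9 at 24 h, 4 to 7 and 3 to 5 at 48 h, 10 to 12 and 1 to 3 at 72 h, 6 to 8 and 4 to 6 in the mean, and 13 to 16 and 0 to 1 late. The medians ranged from -0.14 to -0.01, -0.37 to -0.22, -0.11 to 0.02, 0.40 to 0.54, -0.01 to 0.13 and 0.36 to 0.49 in the same order. Dim probes limit these data, since 38 of the 74 histone probes were detected on no array.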
